A study of Mus musculus with 65 samples.

Results

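Strip2, Lmod3, Aqp11 and Car7 are 4 genes known to be enriched in the outer hair cells (OHCs) of the cochlea, and their counts were followed here through 65 single mouse OHCs at postnatal day 10. The 4 genes were taken by name from the 55292 gene rows of the deposited table, and all 4 were found. Each was read in every cell, with values per cell from 155 to 4481 counts per 1000000 counts (CPM), and by pooled CPM they ranked between 32 and 64 among all genes. Rank correlations between their levels over all 65 cells were weak, at most 0.15 for any pair. Between genotypes, Strip2 and Car7 were at lower pooled levels in cells labelled Casz1 CKO and Lmod3 and Aqp11 at slightly higher ones, with all 4 ratios below 2-fold.

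OHCs amplify sound by changing length. The motor is prestin, encoded by Slc26a5, which sits in the lateral wall and needs intracellular chloride, and the cell body and its apical bundle are held by actin. Strip2 encodes a striatin-interacting protein of the STRIPAK complex, in which striatins join protein phosphatase 2A to Ste20-type kinases. Lmod3 encodes a leiomodin, an actin filament nucleator best known from the sarcomeres of skeletal muscle. Aqp11 encodes an aquaporin that is found largely on intracellular membranes, including the endoplasmic reticulum. Car7 encodes a cytosolic carbonic anhydrase, an enzyme that interconverts carbon dioxide and bicarbonate. By these roles Lmod3 is the cytoskeletal gene of the set, and the others encode a scaffold protein, a channel and an enzyme.

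The 48 WT cells came from Slc26a5FlpO/+; Rosa26FSF-H2BEGFP/+ mice, in which FlpO made under Slc26a5 control turns on a green nuclear reporter. The 17 CKO cells came from mice with the same 2 alleles that in addition carried Atoh1Cre/+ and Casz1flox/flox, so the groups also differ in the presence of Cre, and Atoh1 is active in both kinds of hair cell. Cells of both groups were picked by hand and carried the green nuclear label. The labels name no animal or litter, each genotype is therefore 1 sample, and no difference below has a replicate check or a test.

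Depth was similar in both groups. Totals ran from 7458126 to 17107710 counts per WT cell (median 11520603) and from 8239671 to 15320549 per CKO cell (median 12269271), with medians of 7586 and 7417 genes detected. Of 10 OHC markers all reached 5 CPM and 8 had a count in every cell. Of 7 inner hair cell markers 4 reached 5 CPM (Slc17a8, Otof, Atp2a3 and Calb2) and 1 had a count in every cell. The others, Tbx2, Slc7a14 and Shtn1, stayed under 1 CPM. Calb2 is also among the 7 hair cell markers, so the sums of these lists given below share it. Macrophage (6 markers), mesenchyme (6), endothelium (4) and erythroid markers (4) had summed medians under 1 CPM in both groups. The 12 supporting cell markers summed to 1031 to 5718 CPM in WT cells (median 2835) and 907 to 4003 CPM in CKO cells (median 1743), with 4 of them under 1 CPM, and the 6 glial markers to medians of 97.4 and 16.8 CPM. Neuronal markers (6) summed to medians of 5864 and 7479.6 CPM, the 7 inner hair cell markers to 1778 and 1489.8 CPM, the 7 hair cell markers to 7559 and 7062 CPM and the 5 markers of the stria vascularis to 124 and 123 CPM. The part of such markers in the differences below was not tested. No other cell type was sequenced, so enrichment of the 4 genes in OHCs could not be examined. Casz1, the targeted gene, was at 53.3 CPM in WT and 46.2 CPM in CKO cells; counts over the whole gene do not show whether the floxed part is lost. WT cells 1 to 11, 12 to 45 and 46 to 48 differ as runs in mitochondrial transcripts, a split set after seeing those values, and the labels name no batch. Of the cells, 9 WT and 15 CKO showed the Xist pattern (at least 10 counts of Xist, fewer than 10 of Y-linked genes), 8 of those WT cells lie in the run 1 to 11, so genotype cannot be told apart from these patterns in most cells.

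Strip2 (ENSMUSG00000039629.14) lies on the plus strand of chromosome 6 from 29917012 to 29959681 in GRCm38, and Lmod3 (ENSMUSG00000044086.8) on the minus strand of the same chromosome from 97238534 to 97252759. Aqp11 (ENSMUSG00000042797.9) lies on the minus strand of chromosome 7 from 97724006 to 97738289, and Car7 (ENSMUSG00000031883.13) on the plus strand of chromosome 8 from 104534689 to 104550343. None of their exons overlaps an exon of another gene in GENCODE M21. Under that annotation the unknown strand setting brings no ambiguity to the counts of these 4 genes. The annotation behind the counts themselves was not given.

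The 250 bases before the RefSeq start (GRCm38.p6) are shown for Strip2, Aqp11 and Car7, to set the stretches before the starts of genes read in every OHC side by side. None is printed for Lmod3. Strip2 is from chr6:29916763-29917012 (plus strand), Aqp11 from chr7:97738248-97738497 (minus strand), and Car7 from chr8:104540557-104540806 (plus strand), which is before the middle of 3 listed starts. The Car7 window thus lies inside the GENCODE span of that gene, and the Aqp11 window reaches into the GENCODE span of Aqp11. Which starts these cells use was not examined. Capitals mark matches on either strand to the E-box CAGCTG, the TATA box TATAAA, the CCAAT box, the GC box GGGCGG, the motif TTGTGG and the Ikaros-type motif TGGGAA.
Strip2: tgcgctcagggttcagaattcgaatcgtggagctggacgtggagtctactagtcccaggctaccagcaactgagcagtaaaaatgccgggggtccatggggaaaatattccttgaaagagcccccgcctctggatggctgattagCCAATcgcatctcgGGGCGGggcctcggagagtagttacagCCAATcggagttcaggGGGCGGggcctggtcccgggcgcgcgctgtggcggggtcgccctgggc
Aqp11: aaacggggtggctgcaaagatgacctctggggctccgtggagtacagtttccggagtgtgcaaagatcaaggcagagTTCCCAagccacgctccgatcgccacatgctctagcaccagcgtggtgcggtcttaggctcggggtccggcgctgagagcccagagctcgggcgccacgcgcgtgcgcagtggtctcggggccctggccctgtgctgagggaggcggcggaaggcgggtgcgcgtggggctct
Car7: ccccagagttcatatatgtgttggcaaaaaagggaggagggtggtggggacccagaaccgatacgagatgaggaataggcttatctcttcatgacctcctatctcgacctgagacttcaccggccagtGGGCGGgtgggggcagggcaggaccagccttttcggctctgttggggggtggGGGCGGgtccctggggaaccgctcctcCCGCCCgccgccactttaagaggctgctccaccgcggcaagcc
Strip2 held 2 matches to CCAAT and 2 to GGGCGG, Car7 held 3 to GGGCGG, and Aqp11 held a single match to TGGGAA, read on the other strand. GGGCGG occurs in 32.7% of the 32851 listed promoter stretches of this length, CCAAT in 33.8% and TGGGAA in 21.6%. No TATAAA (12.4% of stretches), CAGCTG (13.0%) or TTGTGG (12.3%) was present in the 3 windows, which says only that these letters are not there. The looser pattern CANNTG, found in 66.2% of stretches, had 1 match each in Strip2 and Aqp11 and none in Car7. The windows had a GC content of 62.0% (Strip2), 67.2% (Aqp11) and 62.4% (Car7), against a median of 52.4% over all stretches.

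Strip2 ran from 487 CPM to 2810.3 CPM in WT cells, with a median of 1420.4 CPM, and from 155 CPM to 2132 CPM in CKO cells, with a median of 917 CPM. The groups overlapped over most of this range, but CKO cells 7, 11 and 12, at 155, 247 and 355 CPM, lay below every WT cell, and 15 of 17 CKO cells lay below the WT median. The pooled level was 1410.3 CPM in WT cells (95% interval 1407 to 1413, counting error only) and 977 CPM in CKO cells (972 to 981). This is a log2 ratio of CKO over WT of -0.53 (-0.54 to -0.52), a level 1.44-fold lower in CKO cells, and the WT cell was higher in 73.8% of the 816 pairs of a CKO and a WT cell. Reads here carry no molecular identifiers and the intervals leave out differences between cells and animals, so they do not measure the error of a comparison of genotypes. Among 152 genes within 2-fold of its level 13.2% had a larger absolute log2 ratio, and the SD of their log2 ratios was 0.399.

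Car7 was the other gene at a lower level in CKO cells. It ran from 1343 CPM to 3972 CPM in WT cells (median 2436 CPM) and from 647 CPM to 3388 CPM in CKO cells (median 1926 CPM). CKO cells 12, 14 and 16, at 647, 657 and 1239 CPM, lay below all WT cells, and 14 of 17 CKO cells below the WT median. Pooled levels were 2483 CPM in WT (2478 to 2487) and 2023 CPM in CKO (2016 to 2029), a log2 ratio of -0.30 (-0.30 to -0.29). In 68.1% of cell pairs the WT value was the larger. The pooled ratio depended in part on few cells, while the log2 ratio of the medians of per-cell CPM was -0.34. Cells 12 and 14 are the CKO cells with neither the Xist nor the Y pattern, and without the 4 such cells of both groups, an exclusion chosen after seeing the data, the log2 ratio was -0.17. Of 61 genes of similar level 39.3% had a larger absolute ratio.

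Lmod3 ran from 597 CPM to 3707 CPM in WT cells (median 1844 CPM) and from 774 CPM to 4481 CPM in CKO cells (median 2014 CPM). The highest value was CKO cell 11, which is among the lowest for Strip2, and the other 16 CKO cells lay inside the WT range. Pooled levels were 1982 CPM (1978 to 1986) and 2199 CPM (2192 to 2205), a log2 ratio of 0.15 (0.14 to 0.15), and without CKO cell 11 it was 0.043. Aqp11 ran from 599 CPM to 2878 CPM in WT cells (median 1458 CPM) and from 811 CPM to 3152 CPM in CKO cells (median 1645 CPM). Its pooled levels of 1546 CPM (1543 to 1550) and 1708 CPM (1703 to 1714) gave a log2 ratio of 0.14 (0.14 to 0.15), and a single CKO cell, cell 8, lay above all WT cells. For both genes the CKO cell was higher in just over 50% of pairs, 56.99% for Lmod3 and 59.1% for Aqp11, and 70.4% and 65.8% of genes of similar level had a larger absolute ratio.

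None of the 4 genes reached a 2-fold difference, which 29.5% of 10842 measured genes did (measured: 5 CPM or more in either genotype). Of these genes 15.1% were higher and 14.5% lower in CKO cells by at least 2-fold, and their median log2 ratio was 0.0092. The count of 2 genes higher and 2 lower stands beside 50.4% and 49.6% of all measured genes. The median-of-ratios scaling of DESeq2 lowered every log2 ratio by 0.12, which left Lmod3 at 0.027 and Aqp11 at 0.021, so their direction is small beside the choice of scale.

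**Figure D1:**
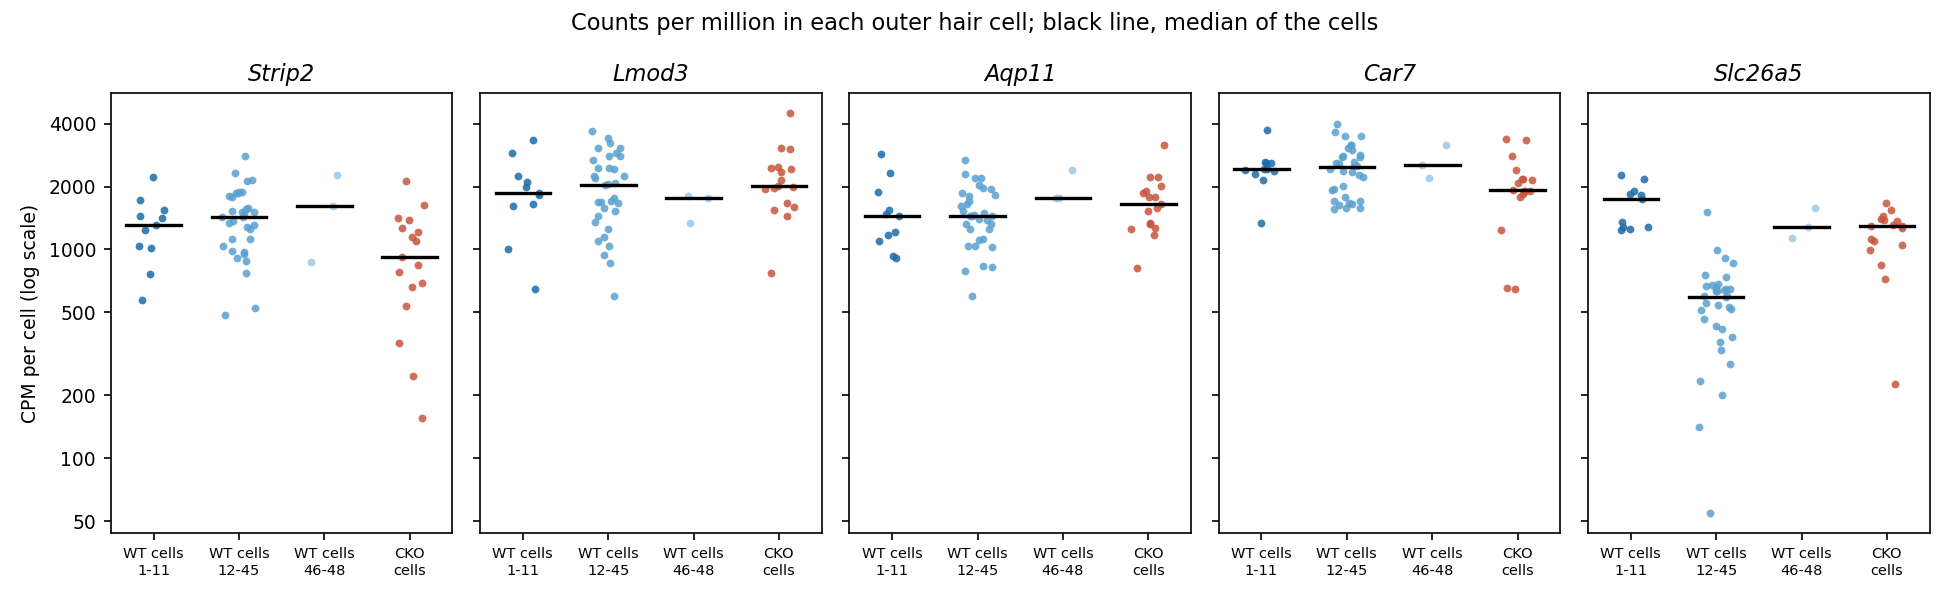
CPM in each cell on a log scale, for the 4 genes and Slc26a5, with WT cells split by run and CKO cells on the right; each point is 1 cell and the black line is the median. Strip2 in CKO cells reaches down to 155 CPM, Car7 has 2 CKO cells near 650 CPM (647 and 657), and Slc26a5 alone of these 5 genes has a clearly lower run, WT cells 12 to 45.

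The direction of Strip2 was the same against each run of WT cells and in Xist-pattern cells. Pooled Strip2 stood at 1287, 1445 and 1603 CPM in WT cells 1 to 11, 12 to 45 and 46 to 48, all above the 977 CPM of CKO cells. In Xist-pattern cells it stood at 1264 CPM (9 WT) and 986 CPM (15 CKO), a log2 ratio of -0.36. Car7 stood at 2476, 2469.6 and 2639 CPM in the 3 runs, and at 2542 against 2207 CPM in Xist-pattern cells. Lmod3 stood at 1919, 2046 and 1630.2 CPM in the runs, each below the 2199 CPM of CKO cells. Aqp11 stood at 1541, 1505 and 1969 CPM, so it was below the CKO level of 1708 CPM in the first 2 runs and above it in the last, which holds 3 cells. In Xist-pattern cells Aqp11 had the largest positive ratio of the 4 genes, at 1752 against 1341 CPM (log2 0.39). The part of sex and of run in these ratios was not tested.

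**Figure D2:**
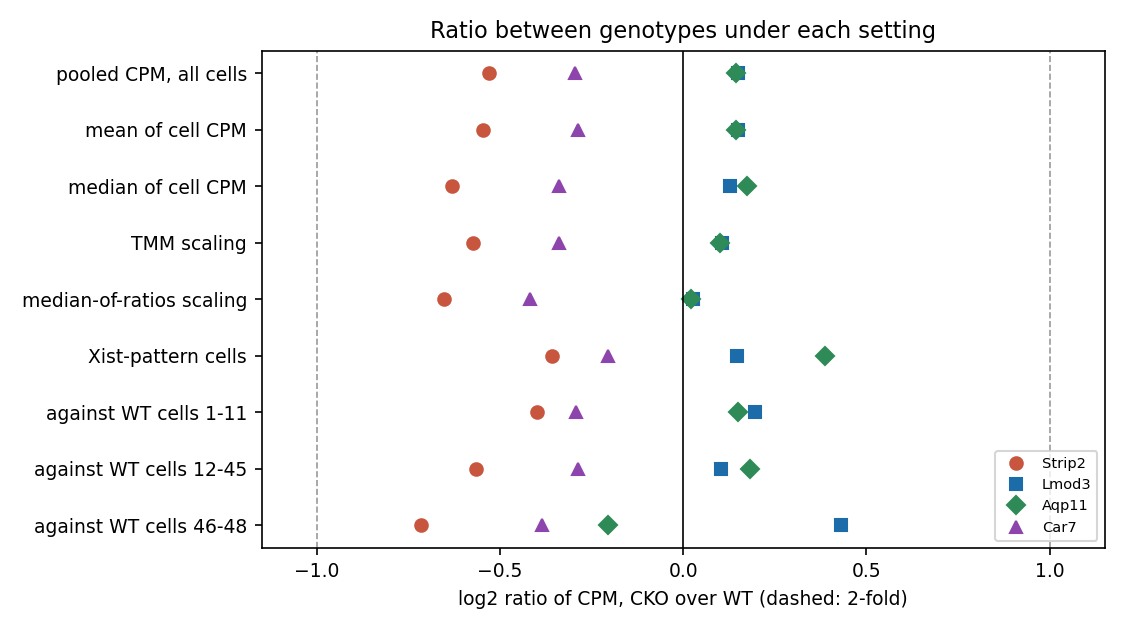
Log2 ratio of CKO over WT for each gene (horizontal axis) under 9 of the settings examined (vertical axis), with dashed lines at 2-fold. Strip2 and Car7 lie left of 0 in every setting shown, Lmod3 lies right of it, and Aqp11 changes side against WT cells 46 to 48 (-0.20).

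Levels over the WT runs differed less for these 4 genes than for prestin. The highest run exceeded the lowest by 1.25-fold for Strip2, 1.25-fold for Lmod3, 1.31-fold for Aqp11 and 1.07-fold for Car7. Slc26a5 had 1649 CPM in the run 1 to 11 and 576 CPM in the run 12 to 45, a 2.86-fold difference that 1.84% of 217 genes of similar level exceeded. Between the same 2 runs, all 61 genes near the level of Car7 differed by more than Car7 did (log2 0.0035), and so did 91.0% of the genes near Aqp11 (log2 0.034). Strip2 (51.3%) and Lmod3 (66.2%) stood nearer the middle of the genes at their level.

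Expressed per length, the order of the genes changed. Lmod3 had the highest level, at 921 CPM per kb of annotated exon (2215 bases), followed by Car7 at 649 CPM per kb (3637 bases). Aqp11 at 169 CPM per kb (9418 bases) and Strip2 at 155 CPM per kb (8329 bases) were close together. On this scale Lmod3 was the highest of the 4 genes in 50 of 65 cells and Car7 in the other 15. The lowest was Strip2 in 33 cells and Aqp11 in 32, so these neighbours did not separate over all cells, although in CKO cells Strip2 was the lowest in 13 of 17. Exon lengths join all annotated transcripts, including some that keep introns, and full-length coverage was not examined, so per-length levels are approximate.

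All 4 genes had a count in 65 of 65 cells (exact 95% binomial interval 94.5% to 100%). That interval treats the cells as independent draws, although cells of a genotype are not replicates, so it does not extend to other animals. The lowest count of any of them in any cell was 1932, for Strip2 in CKO cell 7, far above the limit of 3 counts that a count of 0 would allow. For comparison, 13.8% of the 6422 genes with at least 20 CPM over all cells had a count in every cell. Most of those genes were at lower levels than these 4, and no share among genes of similar level is given here.

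The coefficient of variation (CV, the SD of CPM over cells divided by its mean) was 0.42 for Strip2, 0.38 for Lmod3, 0.33 for Aqp11 and 0.29 for Car7. Counting of reads alone would give an SD of 0.62% to 0.84% of the mean at their median counts, while the sampling of molecules before amplification was not measured. A lower CV than theirs was found for 2.90% of genes of at least 20 CPM beside Strip2, 1.88% beside Lmod3, 0.794% beside Aqp11 and 0.389% beside Car7, and the median CV of these genes was 1.23. Genes of higher level were more even in general, so level has to be matched. Among genes within 2-fold of each one's pooled CPM, 55.9% were more even than Strip2 and 60.6% more even than Lmod3, against 28.8% for Aqp11 and 22.95% for Car7. Strip2 and Lmod3 thus stood near the middle of the genes at their level, and Car7 and Aqp11 on the more even side. Slc26a5, with a CV of 0.55, was more uneven than 84.8% of genes at its level.

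The effective number of cells, the squared sum of CPM over the sum of squares, restates the CV and is 65 if all cells are equal. It was 55.5 for Strip2, 56.9 for Lmod3, 58.8 for Aqp11 and 60.02 for Car7. Medians over genes of similar level were 56.5, 58.1, 56.9 and 58.2 in the same order, so Strip2 and Lmod3 lay slightly below theirs. Over all genes of at least 20 CPM, mostly of lower level, the median was 26.05. The single highest cell held 2.60% (Car7) to 3.38% (Lmod3) of the summed CPM, against a median of 7.95% over all those genes.

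**Figure D3:**
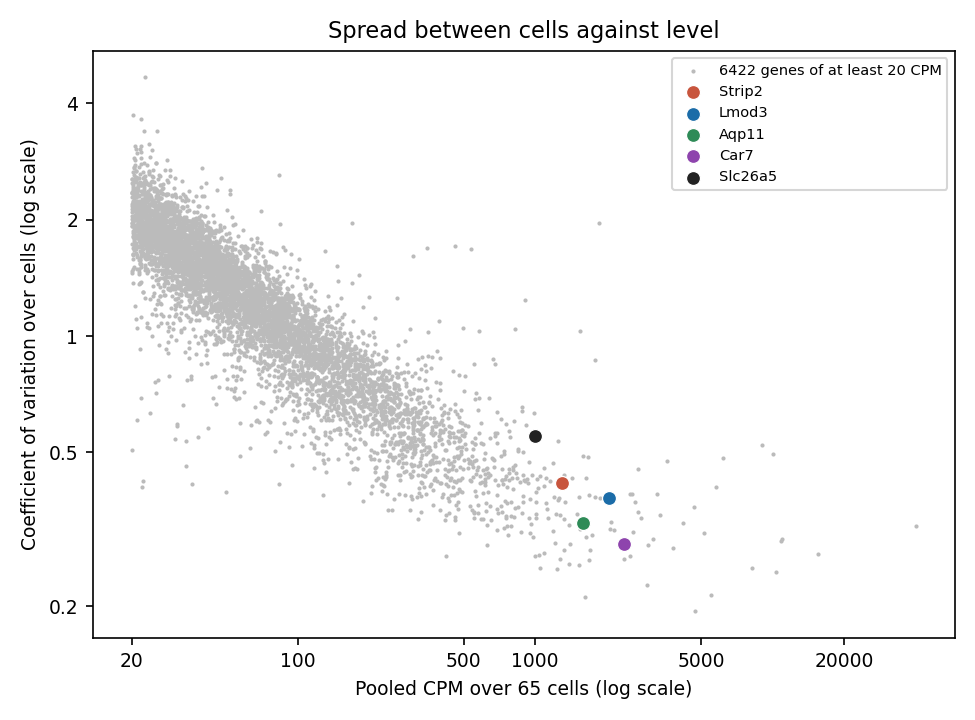
CV over 65 cells against pooled CPM, both on log scales, for 6422 genes (grey) and the 5 genes named in the key. Spread falls as level rises, the 4 genes lie within the cloud at their level, with Car7 at its lower side, and Slc26a5 lies at the upper side.

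Spread within genotype set Strip2 and Car7 apart from the other 2 genes. The CV of Strip2 was 0.54 in CKO cells and 0.36 in WT cells, a ratio of 1.51 that 2.63% of the 152 genes of similar level exceeded (median ratio 0.97). Among Xist-pattern CKO cells alone it was 0.53. The CV of Car7 was 0.37 in CKO and 0.25 in WT cells, a ratio of 1.46 that 8.20% of 61 genes exceeded, but it was 0.26 in Xist-pattern CKO cells, from which cells 12 and 14 are absent. Lmod3 (0.37 and 0.38) and Aqp11 (0.32 and 0.33) were as variable in CKO as in WT cells. The CV of prestin was 0.29 in CKO and 0.64 in WT cells, but within the WT runs it was 0.23 (cells 1 to 11), 0.47 (12 to 45) and 0.17 (46 to 48), on both sides of the CKO value.

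The CKO cells at the low end were not the same for each gene. Of 17 CKO cells, 5 lay below all WT cells in at least 1 gene: cells 7 and 11 for Strip2, cells 14 and 16 for Car7, and cell 12 for both. Cell 12 also had the fewest detected genes of the CKO cells (5938), the lowest Slc26a5 of them (226 CPM) and the highest Ocm (88794 CPM), with Ocm being the gene of the calcium buffer oncomodulin. Its Lmod3 (3019 CPM) and Aqp11 (1774 CPM) were above their CKO medians. Cells 7 and 11 had 6971 and 7510 genes detected and Slc26a5 at 1098 and 839 CPM, inside the range of the other CKO cells. The part of library quality in these low values was not tested.

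Co-variation between the 4 genes was weak. Over all 65 cells Spearman's rho ranged from -0.064 (Strip2 and Lmod3) to 0.15 (Aqp11 and Car7) over the 6 pairs, with a median of 0.066. The other pairs were at -0.045 (Strip2 and Aqp11), 0.073 (Strip2 and Car7), 0.14 (Lmod3 and Aqp11) and 0.059 (Lmod3 and Car7). For comparison, the 1919820 pairs among 1960 genes with at least 20 CPM and a count in at least 60 cells had a median rho of 0.00092, and their central 90% ran from -0.23 to 0.23. All 6 pairs lie inside that range. These are descriptions over cells that share genotype, run and library preparation, and carry no p-value.

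**Figure D4:**
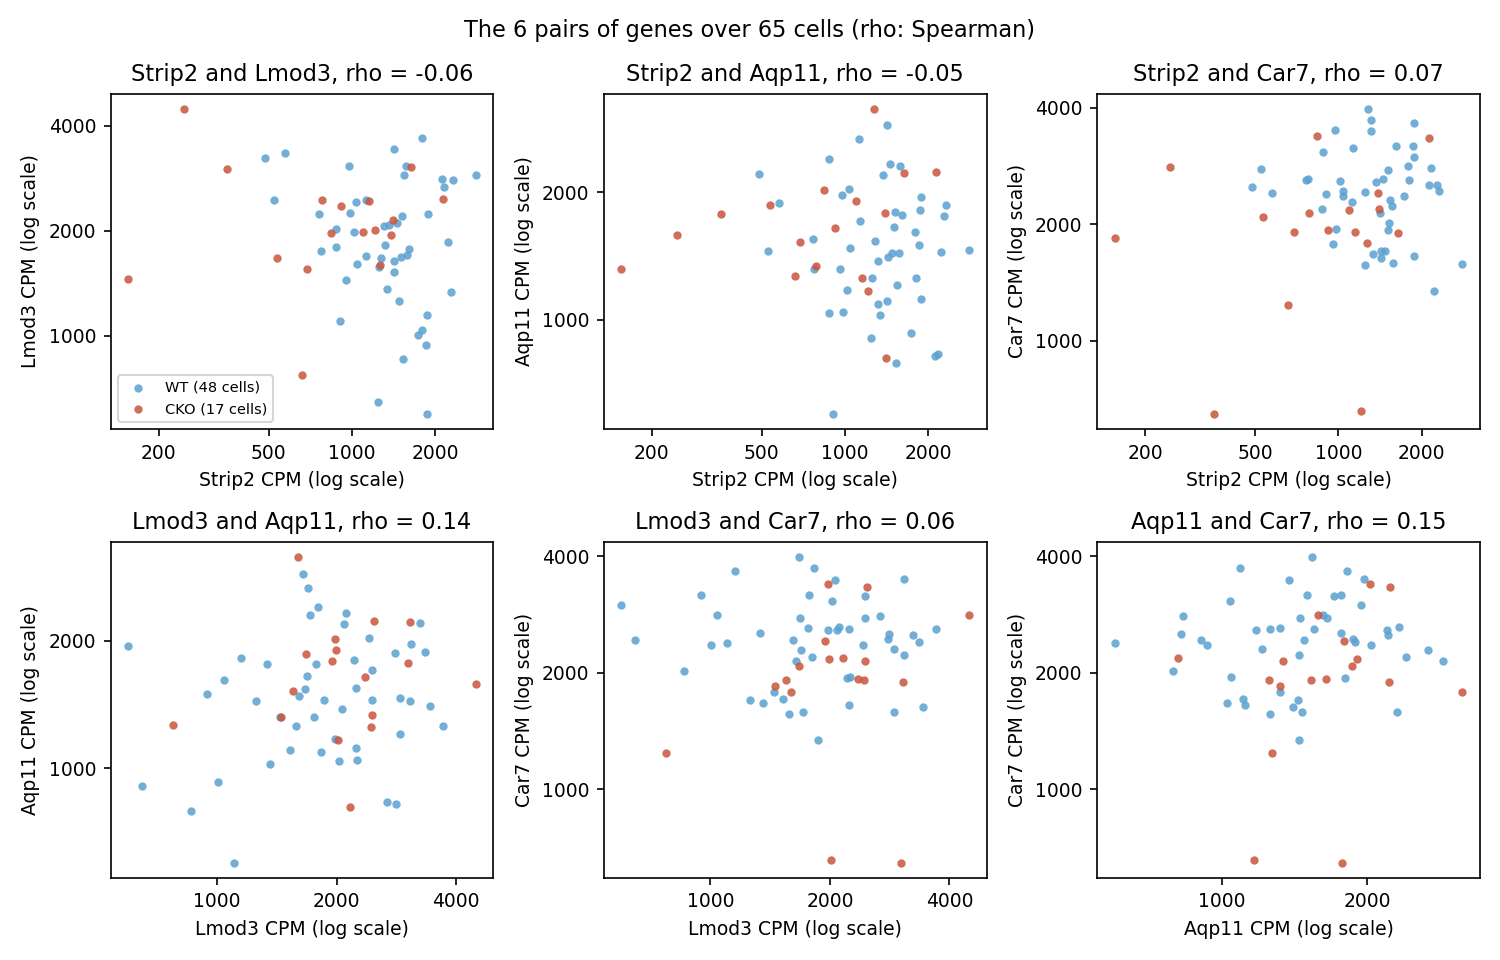
Each panel plots the CPM of 1 gene against another, both on log scales, for 48 WT cells (blue) and 17 CKO cells (red), with Spearman's rho over all cells. The points form clouds without a clear slope, rho lies between -0.06 and 0.15, and CKO cell 12 is low in both Strip2 (355 CPM) and Car7 (647 CPM).

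The summed level of the genes gave the same picture. Their joint share of a cell's counts had a median of 0.754% among WT cells (0.4996% to 0.951%) and 0.676% in CKO cells (0.394% to 1.02%). The CV of the sum over all cells was 0.181, close to the 0.176 that the 4 variances would give with no covariance. In WT cells it was 0.159 against 0.165, and in CKO cells 0.237 against 0.194. All 6 rho values were positive in CKO cells, from 0.11 to 0.27, while in WT cells they ran from -0.10 to 0.14. In the 11 cells of the WT run 1 to 11 they ran from -0.48 (Strip2 and Car7) to 0.49 (Lmod3 and Aqp11), and in the run 12 to 45 from -0.093 to 0.20. A rho over 17 or 11 cells is loose, and whether the genotypes differ in co-variation was not tested. After each gene was centred on the median of its run, the 6 values lay between -0.017 and 0.16.

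The genes also differed in how they followed the best known OHC genes. Aqp11 had a rho of 0.29 with Slc26a5 over all cells, above 98.1% of the 1919820 gene pairs but inside the central 90% (-0.30 to 0.35) of pairs among 254 genes of at least 500 CPM, which is nearer to its level. It was positive in WT cells 1 to 11 (0.64), WT cells 12 to 45 (0.46) and CKO cells (0.17). Strip2 had -0.10 and Lmod3 0.036 with Slc26a5, and Car7 -0.037, though in CKO cells Strip2 was at 0.53, Car7 at 0.40 and Lmod3 at -0.27. With Ocm, Strip2 had a rho of -0.31, at the lower edge of that central 90%, and Lmod3 one of 0.25, inside it. For Strip2 and Ocm it was -0.22 in WT cells, -0.17 in CKO cells and -0.17 after centring on runs. Ocm, at 36668 CPM in WT and 49172 CPM in CKO cells, is itself part of the total that CPM divides by. Lmod3 and Ocm were at 0.56 in CKO cells, 0.16 in WT cells and 0.26 after centring. Total count had little relation to any of the 4 genes (rho from -0.064 to 0.096). The number of genes detected had 0.28 with Car7, 0.22 with Aqp11, 0.19 with Strip2 and 0.0017 with Lmod3, and the mitochondrial share had -0.36 with Aqp11, -0.25 with Lmod3 and 0.22 with Strip2.

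The genes whose CPM followed each member most closely over the 65 cells were different for each, and all values were moderate. Aqp11 had the highest, with Pdia3 at 0.50, Tmco3 at 0.48, Bsg at 0.47, Hspa5 at 0.47 and Arxes2 at 0.46. Pdia3 and Hspa5 encode a disulfide isomerase and the main chaperone of the endoplasmic reticulum, and Bsg encodes the membrane glycoprotein basigin. After centring on runs these 5 values were 0.43 to 0.47, and with Hspa5 rho was 0.45 in WT and 0.43 in CKO cells. Both chaperone genes had higher pooled levels in CKO cells, at 1210 against 463 CPM for Pdia3 and 1974 against 511 CPM for Hspa5. Pdia3 was at 0.051 in CKO cells, and Arxes2 has a near copy beside it, so its counts are uncertain.

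Lmod3 was followed by Ptn, the gene of the growth factor pleiotrophin, at 0.43, then Tmem41b at 0.42, Efcab14 at 0.42, Ormdl2 at 0.39 and Maf1, a repressor of RNA polymerase III, at 0.39. With Ptn it was 0.47 in WT, 0.52 in CKO cells and 0.52 after centring, while with Tmem41b it was 0.58 in WT and 0.012 in CKO cells. Car7 was followed by Lasp1, which encodes an actin-binding LIM protein, at 0.44, then Oaz2 at 0.44, Mkrn1 at 0.43, Pkm, the pyruvate kinase gene, at 0.38 and Vdac1, the channel of the outer mitochondrial membrane, at 0.38. Centring on runs left 0.33 to 0.45 for these 5.

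Strip2 had the lowest values, with Ppp2r1b at 0.39, Uba1 at 0.37, Myom1 at 0.37, Ndufaf8 at 0.36 and Parp6 at 0.36. These dropped to 0.20 to 0.25 after centring on runs. Each of them was also at a lower pooled level in CKO cells, as in Parp6 (WT 382.5 CPM, CKO 183 CPM) and Myom1 (WT 163 CPM, CKO 146 CPM). Myom1, the gene of the sarcomeric protein myomesin, had 0.51 in WT cells and -0.28 in CKO cells. Exons of Ppp2r1b, Myom1, Ormdl2, Mkrn1 and Pdia3 overlap a gene on the opposite strand, and Pkm overlaps a gene on its own strand. The 20 genes were picked as the highest of up to 1960 genes on the same cells, so their values describe that choice.

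Within their families, Strip2, Lmod3 and Aqp11 were the leading members by level per length. Lmod3 at 921 CPM per kb stood beside Lmod1 at 25.8 CPM per kb, and the tropomodulins, which cap the pointed ends of actin filaments, at 8.80 (Tmod2), 7.11 (Tmod1), 5.77 (Tmod3) and 2.75 CPM per kb (Tmod4). Lmod2 had counts in 1 WT cell only. Tmod2 stood at 144 CPM in CKO and 87.7 CPM in WT cells (log2 ratio 0.72) and Lmod1 at 112 against 98.4 CPM. Of the 5 measured kin 3 were higher and 2 lower in CKO cells (beside 50.4% and 49.6% of all measured genes). By 2-fold 0 of them differed, beside 29.5% of all measured genes. Their median log2 ratio was 0.014, which became -0.029 under TMM scaling.

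Aqp11 at 169 CPM per kb was the most abundant aquaporin. Aqp5, a water channel of glands and lung, followed at 17.1 CPM per kb and was counted in 36 of 48 WT and 8 of 17 CKO cells, at 47.8 and 35.3 CPM. The other 10 aquaporins were under 5 CPM in both groups, and Aqp1, Aqp3 and Aqp12 had no count in any cell.

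Car7 shared its place with Car2, the widely expressed cytosolic carbonic anhydrase. Car2 stood at 690.4 CPM per kb, against 649 CPM per kb for Car7, and was also counted in all 65 cells, at 1733 CPM in WT and 1505 CPM in CKO cells (log2 ratio -0.20). Its CV of 0.49 was larger than that of Car7. The membrane-bound Car12 (78.9 CPM in WT and 90.3 CPM in CKO cells) and Car14 (8.73 and 15.9 CPM, with exons that overlap a gene on the opposite strand) were the other measured members, and 12 of 16 were below 5 CPM, 5 of them with no count. Of the 3 measured kin of Car7, 2 were higher and 1 lower in CKO cells (beside 50.4% and 49.6% of all measured genes). By 2-fold 0 of them differed, beside 29.5% of all measured genes. Their median log2 ratio was 0.20 and changed sign under several settings.

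**Figure D5:**
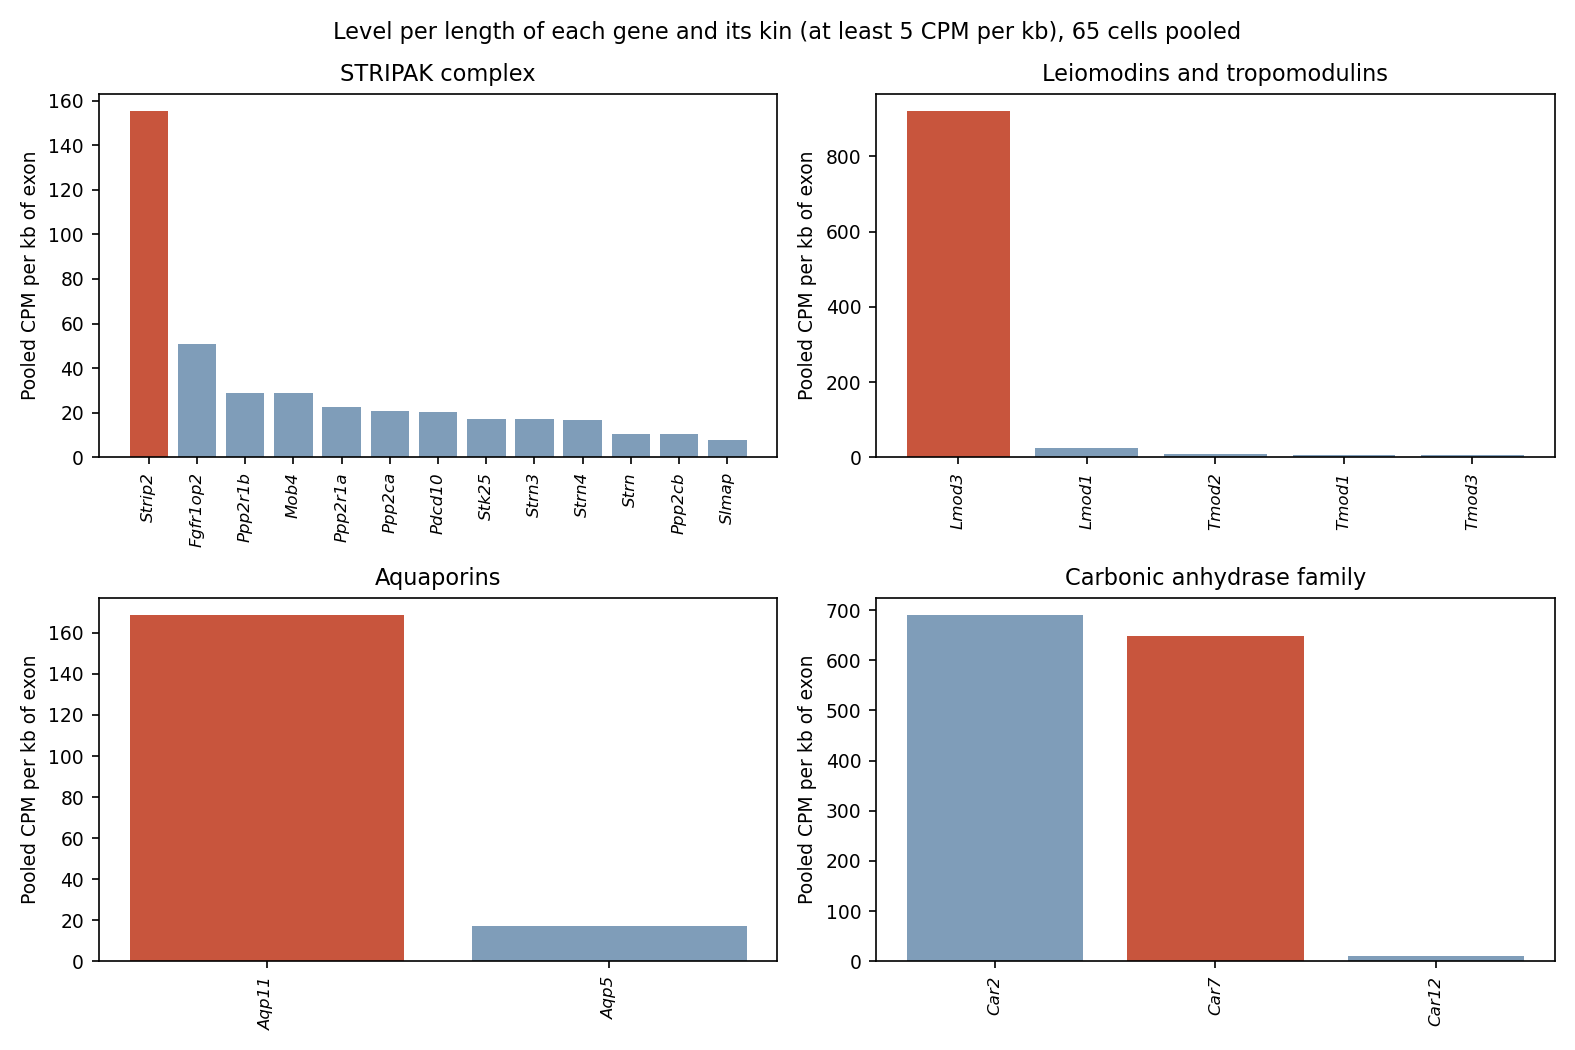
Pooled CPM per kb of annotated exon over 65 cells for each gene (red) and its kin or partners (blue) of at least 5 CPM per kb. Lmod3, Aqp11 and Strip2 are the tallest bars of their panels, and Car7 (649 CPM per kb) stands beside Car2 (690.4 CPM per kb).

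The partners of Strip2 in the STRIPAK complex were present at lower levels. Strip2 at 155 CPM per kb stood above Fgfr1op2 at 51.0, Ppp2r1b at 28.9, Mob4 at 28.7 and Ppp2r1a at 22.5 CPM per kb. Of 15 measured partners 10 were lower and 5 higher in CKO cells (beside 49.6% and 50.4% of all measured genes). By at least 2-fold 5 were lower and 1 higher (beside 14.5% and 15.1%). The median log2 ratio of the partners was -0.39. Lower by 2-fold, in CKO against WT cells, were the kinase gene Stk25 (43.97 against 122 CPM), Sike1 (12.5 against 39.5 CPM), the striatin gene Strn4 (70.9 against 155 CPM) and the phosphatase scaffold genes Ppp2r1b (98.0 against 218.5 CPM) and Ppp2r1a (42.5 against 89.1 CPM). Among the higher partners were Ppp2ca, the catalytic subunit gene (216 against 136 CPM), Strn (116 against 86.0 CPM), Strn3 (134 against 107 CPM) and Ppp2cb. The list's median log2 ratio was -0.67 against the run 1 to 11, -0.48 against the run 12 to 45, -0.11 against the run 46 to 48 and -0.12 among Xist-pattern cells. Exons of Stk25, Ppp2r1b, Ppp2ca and Fgfr1op2 overlap genes on the opposite strand, and 0 of the 15 partners had a count in all 65 cells.

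Bicarbonate, a product of carbonic anhydrases, leaves or enters cells in exchange for chloride. Of 13 genes of chloride, bicarbonate and cation chloride transport, 11 were measured, 2 higher and 9 lower in CKO cells (beside 50.4% and 49.6% of all measured genes), with a median log2 ratio of -0.43. Of the 11 genes 2 were lower by at least 2-fold, a share near the 14.5% of all measured genes. Per length, Slc26a5 (324 CPM per kb) was followed by Slc9a3r1 (9.09 CPM per kb) and the cation chloride cotransporter gene Slc12a7 (6.81 CPM per kb), so these genes were far below Car7. Slc12a5, another cotransporter gene of that family, was among those lower by 2-fold, at 8.69 CPM in CKO and 17.8 CPM in WT cells. Against WT cells 46 to 48 the list's median was 0.39.

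The 8 other OHC-enriched genes were mostly on the opposite side from Strip2 and Car7. Of these, 7 were higher and 1 lower in CKO cells (beside 50.4% and 49.6% of all measured genes), with a median log2 ratio of 0.34. The lower gene was lower by at least 2-fold, and 0 were higher by as much (beside 14.5% and 15.1% of all measured genes). Sri, the gene of the calcium-binding protein sorcin, stood at 3221 CPM in CKO and 2846 CPM in WT cells and had a CV of 0.23, below that of all 4 genes described here. Dnm3, a dynamin gene, stood at 424 against 306 CPM and Chrna10, a subunit gene of the efferent acetylcholine receptor, at 261 against 244 CPM. Restricted to the Xist pattern, 5 of the 8 genes were higher in CKO cells and the median log2 ratio was 0.17. Against WT cells 1 to 11 it was also 5 of 8 (median 0.15). Against cells 12 to 45 it was 7 (0.49), and against cells 46 to 48 it was 6 (0.24). Slc26a5, among the 7 higher genes, stood at 1175 CPM in CKO cells, against 1649, 576 and 1332 CPM in these runs. In Xist-pattern cells Slc26a5 was at 1260 CPM in CKO and 1497 CPM in WT. Exons of Chrna10, Dnm3 and Ikzf2 overlap genes on the opposite strand.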

How the data were processed

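The measured values are raw counts in a single table that the authors deposited, with a row for each gene and a column for each of 65 cells. The libraries were made with a full-length cDNA kit (Smart-Seq HT), per the labels' protocols, and carry no molecular identifiers. Per the submitters' processing notes, HISAT2 2.2.1, StringTie 2.2.1 and featureCounts 2.0.1 were used on mm10; the annotation, strand setting, filters and the tool behind the counts were not given in the sources used here. In the protocol text the picked cells are called IHCs and iOHCs, against OHCs in the titles and the design, which were followed. Each column matched the title of 1 sample.

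Counts were summed per genotype and divided by the summed totals to give CPM (per 1000000 counts). Sums carry exact Poisson intervals and ratios exact conditional (Clopper-Pearson) intervals, at 95% and for counting error only. Shares of cells carry exact binomial intervals at 95%, which treat cells as independent draws and leave out differences between animals. No cell was removed and no doublet caller was run, since cells were picked singly. Correlations are Spearman's over cells. Exon lengths and overlaps come from GENCODE M21 (GRCm38), and promoter stretches from RefSeq. The ratio, CV and correlation code was tested on simulated data. Scaling alternatives used edgeR 4.0.16 and DESeq2 1.42.0; Python 3.11.15 was used for the rest.

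The 4 genes, the lists of kin, partners and markers, and the runs of WT cells were chosen with earlier results of these data known. Named genes are the 4 members, Slc26a5, Ocm and Casz1, the 5 genes with the highest rho to each member among those with at least 20 CPM and a count in at least 60 cells, and list members of at least 5 CPM in either genotype. Beyond this rule, list members and markers at or near 0 (Lmod2, Aqp1, Aqp3, Aqp12, Tbx2, Slc7a14 and Shtn1) are named, chosen after their values were seen. The inner hair cell markers that reached 5 CPM are named beside them. With 1 sample per genotype no p-value was computed. Values of some list members are not reported here.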

Additional observations from a re-analysis of the deposited data

How the results depend on the processing

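No paired analysis was possible because the cells of a genotype carry running numbers that match no cell of the other, and the ratios come from no test. The exclusion of cells with neither sex pattern was chosen after seeing the data. The other 12 settings kept the sign of the log2 ratio for Strip2, Lmod3 and Car7, and 11 did for Aqp11; the cause of each shift was not tested. With the median of per-cell CPM the log2 ratios were -0.63 (Strip2), 0.13 (Lmod3), 0.17 (Aqp11) and -0.34 (Car7), and with the mean -0.55 for Strip2 and -0.29 for Car7. With TMM they were -0.57, 0.11, 0.10 and -0.34 in the same order, with median-of-ratios scaling -0.65, 0.027, 0.021 and -0.42, without mitochondrial and ribosomal protein genes -0.56, 0.12, 0.11 and -0.33, and without Ocm in the total -0.51, 0.17, 0.16 and -0.28. Among Xist-pattern cells Strip2 was at -0.36, Aqp11 at 0.39 and Car7 at -0.20. Against WT cells 1 to 11 Strip2 was at -0.40 and Lmod3 at 0.20, against 12 to 45 the 4 genes were at -0.56, 0.10, 0.18 and -0.29, and against 46 to 48 at -0.71, 0.43, -0.20 and -0.38. Cells with a total of at least 10000000 gave -0.47, 0.16, 0.19 and -0.25. Without the cell with most counts of the gene the values were -0.50, 0.043, 0.17 and -0.28, and without cells with neither sex pattern -0.52, 0.14, 0.19 and -0.17. Leaving out each cell in turn gave -0.64 to -0.45 (Strip2), 0.043 to 0.19 (Lmod3), 0.061 to 0.18 (Aqp11) and -0.35 to -0.22 (Car7).

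The fewest cells with a count stayed at 65 with a minimum of 10 counts and after thinning each cell to 7000000 counts. The median rho of the 6 pairs was -0.037 in WT cells, 0.24 in CKO cells, -0.13 in WT cells 1 to 11 and -0.0093 in WT cells 12 to 45. The median log2 ratio of leiomodins and tropomodulins was -0.030 over all members with a count, -0.029 with TMM and -0.25 against WT cells 46 to 48. For the carbonic anhydrases it was -0.088 over all members with a count, -0.0038 at 20 CPM, -0.34 in Xist-pattern cells, -0.29 against WT cells 1 to 11 and 2.005 against 46 to 48, and for the ion transport genes 0.39 against 46 to 48. Aquaporins, with 1 measured relative, got no median. Counting depth limits none of the values of the 4 genes.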

Other observations

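The 4 cells with neither the Xist nor the Y pattern were WT cells 14 and 29 and CKO cells 12 and 14. WT cells 14 and 29 held Strip2 at 1509 and 1037 CPM and Car7 at 2765 and 2362 CPM, inside the range of the other WT cells. CKO cells 12 and 14 held Car7 at 647 and 657 CPM, the lowest values of any cell, while the next lowest was CKO cell 16 at 1239 CPM. Their Slc26a5, at 226 and 718 CPM, was also the lowest of the CKO cells, and their Strip2 differed, at 355 and 1209 CPM. Whether these cells differ in origin from the other CKO cells is not in the labels.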
